A study of Xenopus laevis with 5 samples.

Results

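The enzymes described here make, split and use arginine. The list held 9 genes: ass1, asl, agmat, arg1, arg2, oat, odc1, gatm and gamt, with the L and S homeologs that the gene reference held. For ass1, arg1 and asl it held only ass1.S, arg1.L and asl.L. A probe was taken as a member where its accession on the array belongs to 1 of these symbols, which gave 26 of the 43653 gene probes, for 10 homeologs. No probe matched asl, so 8 of the 9 listed genes were measured. The homeologs measured were ass1.S (2 probes), agmat.S (1), arg1.L (2), arg2.L (2), arg2.S (1), oat.1.L (3), oat.S (1), odc1.L (6), gatm.L (5) and gamt.S (3).

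RNA came from testes of male Xenopus laevis, the African clawed frog, kept from an early larval stage for 90 days in water with simazine, a chlorotriazine herbicide, at 0 µg/L (2 control samples) or 100 µg/L (3 simazine samples). The strain was not given, and the series speaks of separate testes without saying that they came from separate animals, so a p-value here covers only how far these samples spread, and that spread may be technical. Each sample was hybridised to its own single-colour array, and the question was which testis genes the herbicide changes.

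Arginine sits at a branch point of nitrogen metabolism. In the urea cycle, argininosuccinate synthase (ass1) joins citrulline and aspartate, argininosuccinate lyase (asl) releases arginine, and arginase (arg1 in the cytosol, arg2 in mitochondria) splits it into urea and ornithine. Ornithine aminotransferase (oat) links ornithine with glutamate and proline, and ornithine decarboxylase (odc1) starts polyamine synthesis. Glycine amidinotransferase (gatm) moves the amidino group of arginine to glycine, and guanidinoacetate methyltransferase (gamt) then makes creatine. Agmatinase (agmat) is known as the enzyme that splits agmatine, the decarboxylated form of arginine, into putrescine and urea. Urea synthesis is a liver function in the adult frog, while dividing germ cells and oocytes are known for high ornithine decarboxylase.

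All values below are log2 of the processed signal relative to the 75th percentile of the same array, so a level of 0 equals that percentile and a difference of -1 is a 2-fold lower signal in simazine. The 75th percentile was 1564 to 6693 intensity units, and 69.1% to 85.1% of gene spots were well above background. Control 1 and simazine 2 were on slide 1, and the other 3 arrays on slide 2. Parts of the arrays were distorted: the signal of whole neighbourhoods was shifted on 1 or more arrays, and 25.6% of spots (11190) were left out of the tests for this reason. In places both controls were shifted alike and away from simazine. In grid row 265 the shift was 1.27 and 1.74 on control 1 and 2, and -0.54, -0.04 and -0.21 on simazine 1, 2 and 3. Of the member probes, 19 lay outside and 7 inside distorted areas, and all 26 passed the filter on dim probes, 24 of them on all 5 arrays. The germ cell genes ddx4 and dazl and the Sertoli cell gene sox9 were well above background on all 5 arrays. Whether a probe for an L homeolog also binds the S transcript was not tested.

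None of the 19 tested member probes passed an adjusted p of 0.05 (limma, Benjamini-Hochberg over 26995 probes), where 0.400% of all probes did. At an unadjusted p of 0.05 the number was 3 (3.85% of all probes). A looser call, a fold of 2 or more with an unadjusted p under 0.05, took 3 member probes as lower in simazine, or 15.8% of the 19, against 2.28% of all probes tested. They were both probes of ass1.S and the tested probe of oat.1.L, so probes of 1 gene were counted apart. The members were chosen with earlier results of these data known, so the 15.8% is not independent of that choice. Of named genes, each by its brightest probe, 2.73% were lower by this call. With marked spots left out and the position filter dropped, 6 member probes were lower by this call, against 5.30% of all probes. The other 3 of these lay in distorted areas: A_10_P027181 of arg2.S (-1.86), A_10_P002955 of oat.1.L (-3.14) and A_10_P145958 of gatm.L (-2.67). Leaving out marked spots dropped control 1 from A_10_P002955. From A_10_P145958 it dropped simazine 1, which read -1.08, above both controls. Over all 5 arrays these 2 differences were -2.71 and -1.29. No member probe was higher by the looser call (0.771% of all probes). The median difference was -0.40 over the 19 probes, of which 6 were odc1.L, and 0.03 over all probes tested. That median is the value of odc1.L probe A_10_P268377. Averaged by gene over tested probes, ass1.S, oat.1.L, agmat.S and odc1.L differed by -1.41, -1.07, -0.86 and -0.59. The other genes, arg2.L, oat.S, gatm.L, gamt.S and arg1.L, ran from -0.01 to 0.54.

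Of the tested member probes, those of the urea cycle enzyme ass1.S had the largest negative differences. Probe A_10_P003133 read -0.71 and -0.94 on control 1 and 2, and -2.09, -1.89 and -2.21 on simazine 1, 2 and 3. Probe A_10_P192443 read -2.47 and -2.79 in control, and -4.14, -3.88 and -4.59 on the simazine arrays. On both probes all 3 simazine arrays lay below both controls.

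The difference was -1.24 (SE 0.287, 95% interval -1.96 to -0.52) on A_10_P003133, a 2.36-fold lower signal. It was -1.57 (SE 0.343, interval -2.43 to -0.72) on A_10_P192443, a 2.98-fold lower signal. The adjusted p was 0.435 and 0.364 (limma), and 0.0862 and 0.0992 once slide was a block, so neither passed. In the block fit 0.956% of all probes passed, and no member probe. Both slides gave like values, -1.18 within slide 1 and -1.21 within slide 2 on the first probe, and -1.41 and -1.58 on the second. The scanner software had marked control 1 on both probes, and simazine 2 on A_10_P192443. With marked spots left out, 1 control remained, and the differences were -1.12 and -1.58. The looser call held on A_10_P003133 in 21 of 21 tested alternatives, including the mean of both ass1.S probes (-1.41). Some alternatives kept only 1 control. On A_10_P192443 the looser call held in 19 of 20, ending with normexp background correction and the 75th percentile (-0.99). For that probe, leaving out marked spots and slide 2 alone used the same arrays.

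Of the 3 probes of the ornithine enzyme oat.1.L, only A_10_P141753 lay outside distorted areas. That probe read -0.72 and -0.34 on the controls, and -1.56, -1.65 and -1.58 on simazine 1, 2 and 3. The simazine values lay close together and below both controls. Their difference was -1.07 (SE 0.287, 95% interval -1.78 to -0.35), a 2.09-fold lower signal, with an adjusted p of 0.653 (limma), and 0.118 once slide was a block. It was -0.93 within slide 1 and -1.23 within slide 2. The scanner software had marked control 1 and simazine 2 on this probe. With marked spots left out, 1 control remained, the arrays were those of slide 2 alone, and the difference was -1.23. The looser call ended without control 2 (-0.87) and with normexp and the 75th percentile (-0.99), and held in 18 of 20 tested alternatives.

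The other probes of oat.1.L lay in a distorted area where the neighbourhood was bright on the controls. Around A_10_P002955 the local deviation was 1.01 and 1.40 on control 1 and 2, and -0.86, -0.08 and -0.14 on the simazine arrays. The probe read -1.55 and -0.68 in control and -4.54, -3.34 and -3.58 on simazine 1, 2 and 3, a difference of means of -2.71. With the local deviation subtracted on each array, this difference was -1.14. For A_10_P173858 the readings were -3.70 and -4.47 in control and -7.93, -5.94 and -7.80 on the simazine arrays, of which simazine 1 and 3 were not well above background. Only 1 simazine array measured this probe, so no difference is given. After the same subtraction simazine 2 lay above control 2 on it.

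**Figure D1:**
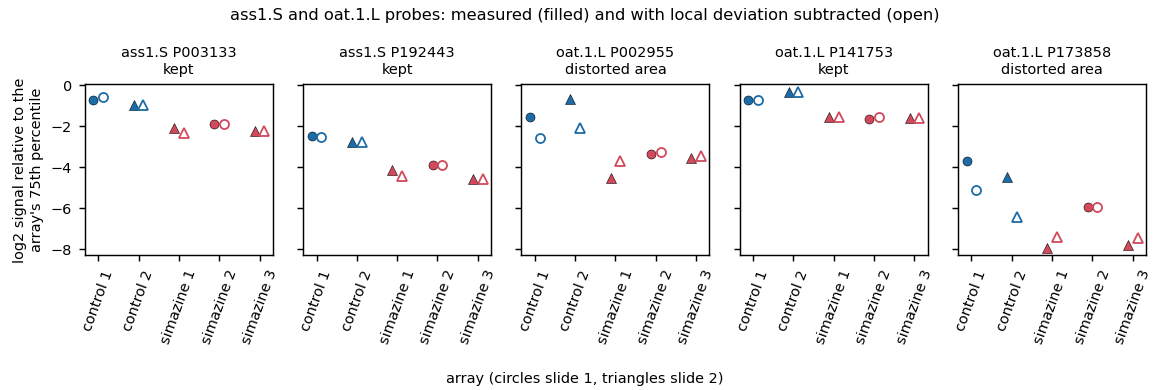
Level (log2 signal relative to the array's 75th percentile) of the 2 ass1.S and 3 oat.1.L probes on each array, as measured (filled) and with the local deviation subtracted (open); blue is control, red simazine, circles slide 1 and triangles slide 2. Subtraction brings the oat.1.L difference of A_10_P002955 from -2.71 to -1.14 and leaves the tested probes A_10_P003133, A_10_P192443 and A_10_P141753 lower in all 3 simazine arrays.

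The S homeolog of oat did not share this pattern in its readings. Probe A_10_P045981 of oat.S read 0.01 and 0.92 in control and 0.80, 0.36 and 0.37 on simazine 1, 2 and 3, with the simazine values inside the control range. Its difference was 0.04 (SE 0.391, 95% interval -0.94 to 1.02), with 0.35 within slide 1 and -0.34 within slide 2. The difference between the homeologs was not tested.

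Agmatinase, agmat.S, read -2.89 and -2.70 in control and -3.26, -3.47 and -4.23 on simazine 1, 2 and 3 (A_10_P009398). The groups did not overlap, and simazine 3 was the lowest array. The difference was -0.86 (SE 0.390, 95% interval -1.84 to 0.12, adjusted p = 1.00 with limma). It stayed below 0 in all 21 alternatives, from -1.06 to -0.51. Without overlap, leaving out arrays could not change its sign. Over the 19 tested member probes 4 had all simazine arrays below both controls (both of ass1.S, oat.1.L and agmat.S), where 6.85% of all probes did.

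Arginase arg1.L was the single member whose tested probe had all simazine arrays above both controls (7.51% of all probes). Probe A_10_P224318 read -1.97 and -1.93 on the controls, which were nearly equal, and -1.82, -1.23 and -1.19 on simazine 1, 2 and 3. The difference was 0.54 (SE 0.329, 95% interval -0.29 to 1.37, adjusted p = 1.00 with limma), and simazine 1 lay close to the controls. The other probe, A_10_P154438 in a distorted area, read -4.67 and -4.27 in control and -3.98, -4.09 and -3.42 on the simazine arrays. Its difference of 0.64 became 0.13 with the local deviation subtracted.

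Mitochondrial arginase, arg2.L, had nearly equal means in both groups. Probe A_10_P027182 read 0.91 and 0.72 in control and 0.33, 0.94 and 1.04 on simazine 1, 2 and 3. Probe A_10_P263597 read -0.27 and -0.44 against -0.49, -0.39 and -0.14. The differences were -0.04 (SE 0.344, 95% interval -0.90 to 0.82) and 0.02 (SE 0.288, interval -0.71 to 0.74), so a change of 2-fold lay outside both intervals.

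The arg2.S probe, A_10_P027181, was in a distorted area and read -1.52 and -1.10 in control and -2.29, -4.22 and -2.99 on simazine 1, 2 and 3. The lowest array, simazine 2, had a local deviation of -1.50 there. Its difference of -1.86 became -0.995 after the subtraction.

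**Figure D2:**
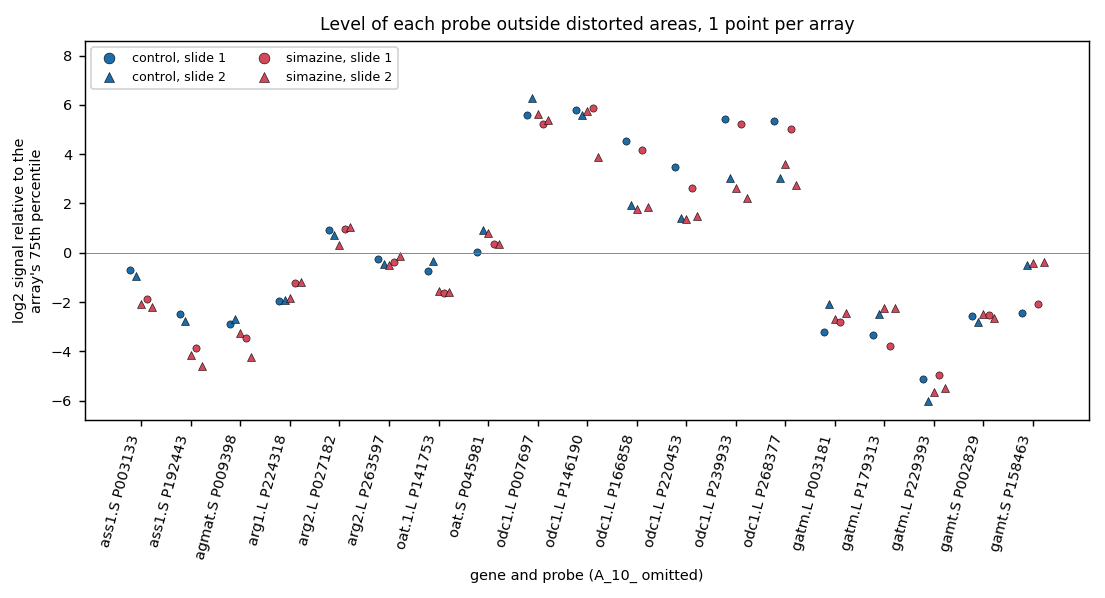
Level (log2 signal relative to the array's 75th percentile) of the 19 member probes outside distorted areas, 1 point per array; blue is control, red simazine, circles slide 1 and triangles slide 2. Simazine points lie below both control points for ass1.S, oat.1.L and agmat.S, while for several odc1.L probes the circles lie above the triangles.

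Ornithine decarboxylase, odc1.L, split by slide rather than by group on 4 of its 6 probes. Probe A_10_P239933 read 5.42 on control 1 and 5.24 on simazine 2, the slide 1 arrays, and 3.04, 2.63 and 2.20 on control 2 and simazine 1 and 3. Slide 1 exceeded slide 2 by 2.38 within the controls and by 2.83 within simazine. The same gap on A_10_P166858 was 2.58 and 2.38. On A_10_P268377 it was 2.34 and 1.85, and on A_10_P220453 2.07 and 1.19. A gap of 2 or more in size within both groups was seen on 2 of the 6 odc1.L probes, A_10_P166858 and A_10_P239933, and on 4.04% of all probes tested (1091). The scanner software had marked spots of each of the 6 probes, on both slide 1 arrays for 3 of the 4 probes with the gap and on simazine 2 for A_10_P268377. Marks on slide 2 fell on control 2 and simazine 1 for 3 of these 4.

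The remaining odc1.L probes had no such gap. On A_10_P007697 the controls read 5.60 and 6.27 and simazine 1, 2 and 3 read 5.62, 5.21 and 5.40. On A_10_P146190 they read 5.77 and 5.57, and 5.76, 5.85 and 3.87, with simazine 3 alone low. All 6 differences were negative, from -0.87 to -0.40, and none had a 95% interval that left out 0. With slide as a block they ran from -0.60 to -0.06, and the smallest unadjusted p was 0.0309 (limma) on A_10_P007697, with an adjusted p of 0.385. That probe was lower by the looser call with normexp and the 75th percentile (-1.09, unadjusted p = 0.0354 with limma), and in no other alternative. Leaving out control 1 turned 4 of the 6 above 0, the probes with the slide gap, to values between 0.32 and 0.77.

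**Figure D3:**
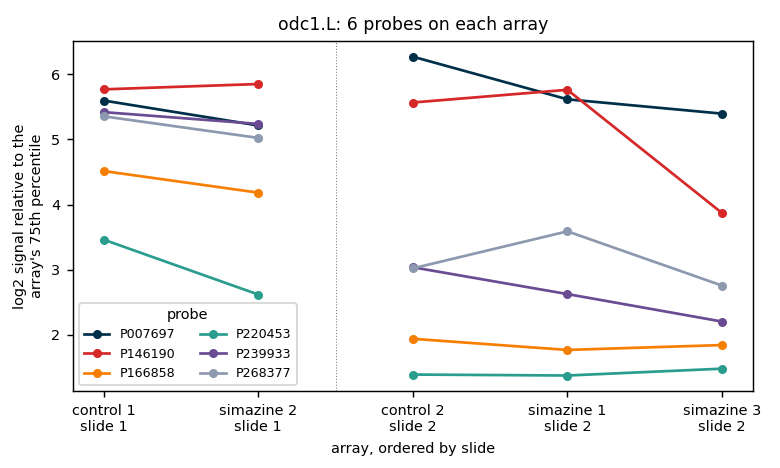
Level (log2 signal relative to the array's 75th percentile) of the 6 odc1.L probes, with the arrays ordered by slide and lines joining arrays of 1 slide. Probes A_10_P239933, A_10_P166858, A_10_P268377 and A_10_P220453 sit higher on both slide 1 arrays than on all 3 slide 2 arrays.

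For creatine synthesis, no tested probe of gatm.L or gamt.S moved past either call. On gatm.L probe A_10_P003181 the controls read -3.21 and -2.09 and simazine 1, 2 and 3 read -2.70, -2.81 and -2.43, all inside the control range (difference 0.01, SE 0.422, 95% interval -1.05 to 1.06). Probe A_10_P179313 read -3.35 and -2.47 against -2.24, -3.80 and -2.23 (difference 0.15), and A_10_P229393 read -5.10 and -6.01 against -5.66, -4.96 and -5.50 (0.18). On each of these probes the groups overlapped.

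The other gatm.L probes lay in distorted areas. Probe A_10_P145958 read -2.87 and -2.27 in control and -1.08, -4.83 and -5.66 on simazine 1, 2 and 3, so its simazine values spread over a far wider range than the controls. A_10_P168008 read -7.51 and -7.06, and -7.95, -4.91 and -4.28, and was not well above background on control 2 and simazine 1. The difference of A_10_P145958 was -1.29, and -0.90 with the local deviation subtracted.

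The methyltransferase gamt.S was steady on A_10_P002829, with -2.55 and -2.79 in control and -2.49, -2.53 and -2.66 on simazine 1, 2 and 3 (difference 0.11, SE 0.277, 95% interval -0.59 to 0.81). A_10_P158463 read -2.45 and -0.50 against -0.42, -2.09 and -0.37, with both slide 1 arrays low (difference 0.51, SE 0.809). A_10_P069652, in a distorted area, read -0.16 and -0.99 against -1.26, -0.16 and -1.25, here with both slide 1 arrays high, a difference of -0.31. The 3 probes of this gene therefore followed different slide patterns.

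**Figure D4:**
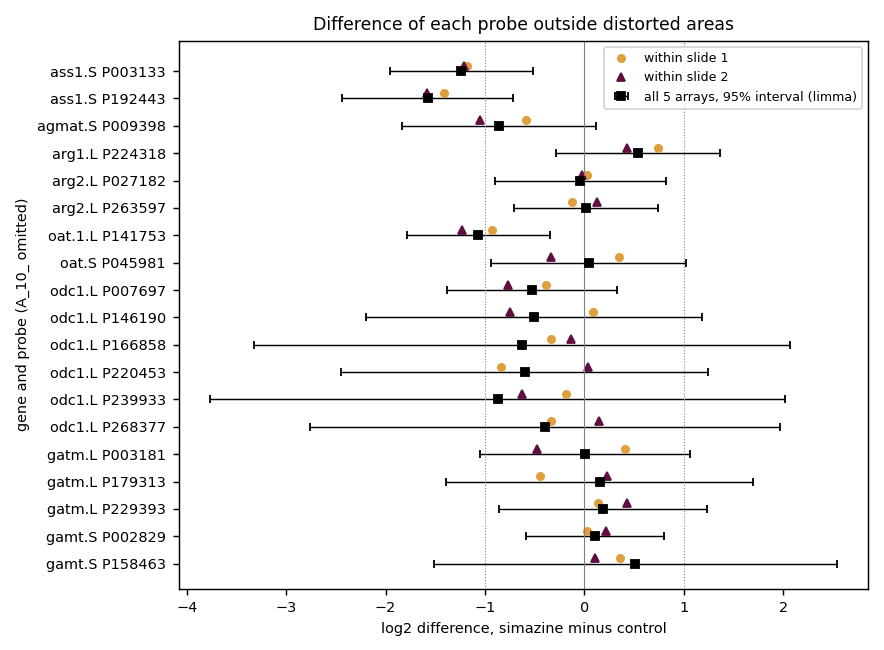
Log2 difference (simazine minus control) of the 19 tested member probes with its 95% interval over all 5 arrays (squares), and the difference within slide 1 (circles) and slide 2 (triangles); dotted lines mark a 2-fold change. The intervals of both ass1.S probes and of oat.1.L leave out 0, and the widest, from -3.77 to 2.02, belongs to odc1.L probe A_10_P239933.

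Neighbouring enzymes of these routes were taken from 5 lists, with 56 homeologs on the array and 48 tested by their brightest probe. None passed an adjusted p of 0.05 (limma; 0.729% of named genes did). An unadjusted p under 0.05 was found for 3 of the 48, all 3 with a negative difference: glul.S and the prmt1 homeologs prmt1.L and prmt1.S. Over all tested probes, not only the brightest of each gene, the share with such a p was 3.85%. The median difference of the 48 was -0.13, and 0.00 over all 8089 named genes. By the looser call 1 gene, glul.S, was lower, where 2.73% of named genes were, and none was higher (0.494%). Per list, the looser call took 1 of 8 urea cycle and ammonia genes, 0 of 11 for arginine transport and use, 0 of 6 for proline, 0 of 13 for polyamines and 0 of 10 for creatine.

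Glutamine synthetase, glul.S, which fixes ammonia on glutamate, read 4.86 and 4.17 in control and 2.59, 2.81 and 2.34 on simazine 1, 2 and 3 (A_10_P005661). All 3 simazine arrays lay far below both controls. The difference was -1.94 (SE 0.351), a 3.82-fold lower signal, with an adjusted p of 0.214 (limma), and 0.0457 once slide was a block. The other 4 probes of glul.S gave -1.94, -1.87, -1.79 and -1.72. With slide as a block A_10_P212464 passed too, with an adjusted p of 0.0388 (limma). The L homeolog, glul.L, differed by -0.66 (SE 0.603) on its tested probe. Its probes in distorted areas differed by -0.92, -1.08 and 2.34 as measured.

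Among the arginine users, the arginine methyltransferase prmt1.L read 5.22 and 5.71 against 4.88, 4.36 and 4.54, a difference of -0.87 (SE 0.331, unadjusted p = 0.0426 with limma). Its homeolog prmt1.S differed by -0.74 (SE 0.289, unadjusted p = 0.0474 with limma). Neither reached a 2-fold change, and other probes of prmt1.L ran from -0.90 to 0.09. The urea cycle genes cps1.L and otc.S differed by 0.29 (SE 0.424) and -0.22 (SE 0.286).

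In the proline list the smallest p values were those of aldh4a1.L (-0.40, SE 0.312, well above background on 2 arrays), which oxidises the proline breakdown product, and the peptidase pepd.L (-0.48, SE 0.377). Among polyamine genes they were those of the antizyme oaz1.S (-0.84, SE 0.914), a brake on ornithine decarboxylase, and the antizyme inhibitor azin2.S (0.30, SE 0.402). Another azin2.S probe, A_10_P000412 in a distorted area, read 3.50 and 3.92 in control against 0.99, -2.82 and -1.69 on simazine 1, 2 and 3. For creatine they were those of mat2b.L (0.63, SE 0.412), a subunit of the enzyme that makes the methyl donor, and ahcy.L (-0.58, SE 0.461), which clears its product. Each of these 6 was under 2-fold and had an adjusted p of 1.00 (limma).

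**Figure D5:**
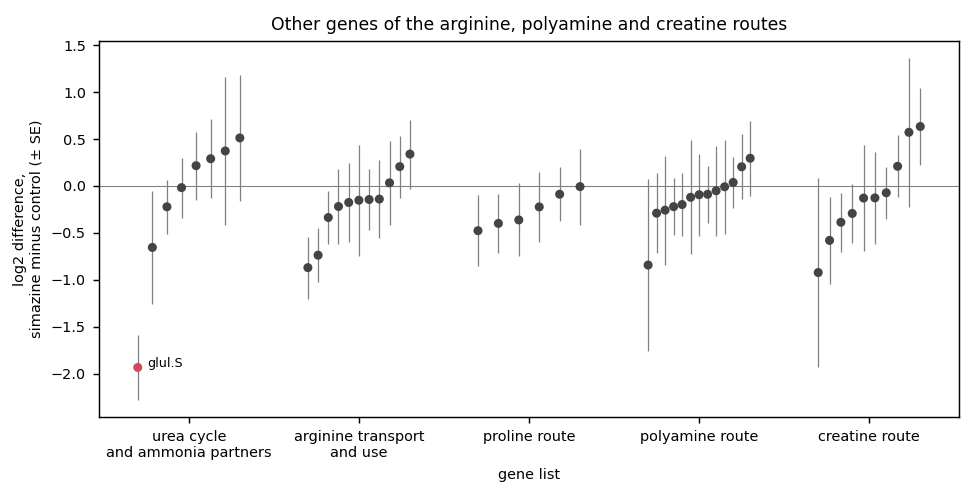
Log2 difference (simazine minus control, ± SE) of 48 other genes of these routes, 1 point per gene, in 5 lists; red marks a fold of 2 or more with an unadjusted p under 0.05. Only glul.S, at -1.94, is so marked, and the other points lie between -0.92 and 0.63.

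Oocyte genes moved with the same contrast. Of 14 oocyte markers tested, 12 were lower in simazine at an adjusted p of 0.05 (limma), where 0.717% of named genes were. Their median difference was -4.79. The list was chosen with earlier results of these data known, so these values are not independent of that choice. The summed signal of the 14, in multiples of the 75th percentile, was 32.0 to 41.5 in control and 1.96 to 2.62 on the simazine arrays. All 14 were well above background on at least 3 of 5 arrays. Their part in the lower values of ass1.S, oat.1.L and glul.S was not tested, and in such whole-tissue RNA, fewer cells of a type and less RNA per cell cannot be told apart.

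Some markers of other tissues also differed between the groups, none past an adjusted p of 0.05 (limma) in the fit without slide. Once slide was a block, the pancreas marker prss3.S passed, with an adjusted p of 0.0325 (limma), where 0.956% of all probes did. The summed signal of 14 liver markers was 4.21 to 4.24 in control and 3.87 to 4.01 on the simazine arrays, all below both controls. The median difference of these 14 was nevertheless above 0, at 0.14. The brightest of them in control, tf.L, read 0.56 and 0.61 there and -0.18, -0.27 and -0.08 on simazine 1, 2 and 3. At an unadjusted p of 0.05 (limma) 2 liver markers were lower, serpina1.S (-1.58) and tf.L (-0.76). The looser call took serpina1.S alone of the 14, where 2.73% of named genes were lower by it. That probe was dim, well above background on 3 arrays, and the brighter homeolog serpina1.L differed by 0.02. Once slide was a block, 2 liver markers were lower by the looser call, which 1048 of 26995 probes met in either direction. Of 9 pancreas markers 3 were higher by the looser call, prss3.S (2.44), cela1.4.L (3.23) and cela3b.L (1.02), where 0.494% of named genes were. The others differed by -0.23 to 0.40. Both prss3.S and cela1.4.L were dim, well above background on 4 arrays, and cela1.4.L read -8.16 and -9.30 in control. The summed signal of the 9 was low, 0.449 to 0.495 in control and 0.640 to 0.721 in simazine, without overlap. Of all tested probes, 6.85% had all simazine arrays below both controls and 7.51% above. No such share was worked out for sums.

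Single markers of other lists also met the looser call, gpa33.L of 3 intestine markers (-2.01) and zpbp2.L of 7 spermatogenic markers (1.27). Of named genes 2.73% were lower and 0.494% higher by this call. The sums of the 3 intestine markers were 1.133 to 1.143 in control and 0.878 to 1.105 in simazine, without overlap. Those of 3 blood markers were 115.6 to 142 and 143.3 to 150.5, also without overlap, and none of them was called. The brightest of them, hbg1.L, differed by 0.21 (SE 0.294), and its groups overlapped. Its other probes differed by 0.0007 to 0.24. Of all tested probes, 6.85% had all simazine arrays below both controls and 7.51% above. For 5 kidney markers the sums were 0.358 to 0.502 and 0.470 to 0.539, with 0 calls by limma and 0 at an unadjusted p of 0.05. Of 9 Sertoli markers 0 were called by limma, also with 0 at an unadjusted p of 0.05, and the sums overlapped between groups. The part of these markers in the members' values was not tested.

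Genes of like pattern were sought among 7756 other named genes by the root mean square distance of mean-centred log2 values over the 5 arrays. Nearest to the brightest ass1.S probe were keap1.L (0.0941), parvb.S (0.0956), sirt3.2.L (0.104), pcbd1.L (0.130) and rbpms2.L (0.130), with differences of -1.41 to -1.07. Closest to oat.1.L (A_10_P141753) were b3gnt7.S (0.0815), mrpl53.L (0.0991), cdc20.S (0.105), dcn.L (0.113) and cdc6.L (0.119), with differences of -1.24 to -0.83. These distances describe 5 arrays and were not tested.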

How the data were processed

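The members and gene lists were chosen with earlier results of these data known. Per the file headers, the authors' deposited scanner tables hold linear intensity values from version 10.7.3.1 of Agilent's Feature Extraction software, background-subtracted, and detrended on slide 2 only. A second deposited table gives log2 values of 27228 probes, and these equal log2 processed signal minus 1 constant per array (within 0.01 for 99.3% to 99.9% of probes). Its column medians were 1.06 and 0.951 (controls) and 0.958, 1.02 and 0.949 (simazine). How the constant was set stays unknown. The scanner software's marks of 0 or 1 for other properties came from the same deposited files.

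From these, log2 signal minus each array's 75th percentile was computed, the kept spots of 1 probe were averaged and control spots left out. The usual step of leaving out marked spots takes 44.0% and 42.6% of gene spots on control 1 and simazine 2, so marked spots were kept. Spots whose local deviation from the 5-array median (a median over 5 rows and 9 columns) exceeded 0.5 on any array were left out instead. This limit was taken from earlier work on these data, set with values seen, and the window includes the spot itself. Saturated spots were kept. Tested probes were well above background on at least 2 arrays. The fit was limma 3.58.1 in R 4.3.3 (lmFit, eBayes, two-sided). On simulated data the fit recovered the sizes of known differences, though it did not call all of them. Of 43653 probes, 16032 had a symbol through RefSeq accessions. All member probes are named. Of the 5 pathway lists, genes past a call or else the 2 with the smallest p are named; cps1.L and otc.S, and the single markers, were named outside this rule with values seen. Genes of like pattern were sought for members past the looser call. The number of arrays limits precision. The slide was taken from the scan time shared by its arrays. Alternatives covered marked spots, position, slide, background correction, normalization, dim probes, array weights, the authors' table and each array left out. For A_10_P003133 they included the mean of both ass1.S probes. Normexp used the median signal with an offset of 50.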

Additional observations from a re-analysis of the deposited data

How the results depend on the processing

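Both ass1.S probes, oat.1.L, agmat.S and arg1.L kept their direction in every alternative run. On these tested probes all simazine arrays lay on 1 side of both controls. Leaving out arrays or a slide could therefore not change their direction. In none of the alternatives did a member probe pass an adjusted p of 0.05 (limma). The number of probes called over the whole array was 108 and became 1 with marked spots left out (with or without the position filter), 372 with no position filter, 188 with local deviation subtracted, 258 with slide as a block, 0 on slide 2 alone (limma), 17 with normexp and the 75th percentile and 43 with no filter on dim probes. It was 0 to 64 on leaving out 1 array. By the looser call it was 824, and became 2436 and 2979 with the position filter dropped and marked spots left out or kept (761 with marked spots left out and the filter retained), 512 and 1437 at local deviation limits of 0.3 and 1, 1992 with local deviation subtracted, 413 and 495 with normexp and the 75th percentile or quantile normalization, 505 keeping probes above background on every array and 1244 with array weights, and 618 to 1426 on leaving out 1 array. Member probes lower by the looser call were 3, also with marked spots left out, and 6 with the position filter dropped, marked spots left out or kept, which let in probes of distorted areas. These sets of 6 differed: A_10_P173858 of oat.1.L was called only with marked spots kept, and A_10_P145958 of gatm.L only with them left out. The number stayed 3 on leaving out any 1 simazine array, and oat.1.L fell short of 2-fold without control 2 (-0.87). Genes of the 5 lists lower by that call were 1, also with marked spots left out, and 3 with the position filter dropped too (1 to 2 on leaving out 1 array).

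The following members changed sign, none past a call. With slide as a block, oat.S was -0.0438 and gatm.L -0.10 (A_10_P003181) and -0.0594 (A_10_P179313). With marked spots left out, with or without the position filter, and on slide 2 alone, oat.S was -0.34. In the same settings odc1.L was 0.0374 (A_10_P220453) and gatm.L -0.47 (A_10_P003181). On these probes the marks fell on control 1 and simazine 2, the slide 1 arrays, so these settings used the same arrays. On slide 2 alone odc1.L was 0.15 (A_10_P268377). Within slide 1, arg2.L was 0.0308 (A_10_P027182) and -0.12 (A_10_P263597), odc1.L 0.0826 (A_10_P146190) and gatm.L -0.44 (A_10_P179313). With local deviation subtracted, arg2.L was 0.0133 (A_10_P027182), oat.S -0.16 and gamt.S -0.12 (A_10_P002829). With normexp and the 75th percentile arg2.L (A_10_P263597) was -0.0895 and oat.S -0.0302, and with normexp and quantile normalization -0.0706 and -0.0791, with gamt.S at -0.0649 (A_10_P002829). With array weights arg2.L was -0.0637 (A_10_P263597) and gatm.L -0.0053 (A_10_P003181) and -0.025 (A_10_P229393). The cause was not tested.

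Leaving out 1 array in turn gave -0.18 to 0.18 and -0.0873 to 0.10 for arg2.L, -0.41 to 0.50 for oat.S, and for gamt.S -0.00963 to 0.23 and -0.46 to 1.49. For gatm.L it gave -0.55 to 0.57, -0.29 to 0.67 and -0.27 to 0.64. For odc1.L it gave -0.86 to -0.19 (A_10_P007697), -0.85 to 0.14, -1.92 to 0.66, -1.64 to 0.43, -2.06 to 0.32 and -1.57 to 0.77. A fit without 1 control assumes that the lone control varies like the other samples. No paired analysis was possible because replicate numbers here only follow the order of the samples and are not in the labels; slide served as the block.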
